A study of Homo sapiens with 28 samples.

Results

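Claudins are the membrane proteins that form the strands of tight junctions, the contacts that seal the space between epithelial cells. A set of 9 was followed here in RNA-Seq of PC3 and LNCaP prostate cancer cells: CLDN1, CLDN2, CLDN3, CLDN4, CLDN6, CLDN7, CLDN8, CLDN11 and CLDN12. These 9 genes, of the 19662 gene symbols measured, were chosen by name and in view of earlier results, namely the level of CLDN1 after ONECUT2 silencing and the difference between the lines. The values that guided the choice, the silencing contrasts in PC3 cells and the levels of the 2 lines, are therefore given as a description and support no test.

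PC3 is a line from a bone metastasis of prostate cancer, and LNCaP is a prostate adenocarcinoma line from a lymph node metastasis. PC3 cells were given siCtrl, a control siRNA, or siOC2, an siRNA that targets ONECUT2, a transcription factor of the Onecut homeobox family. LNCaP cells received an empty vector or a vector for Flag-tagged ONECUT2. Each treatment was kept in normoxia or in hypoxia at 0.2% oxygen, which gives 4 groups per line and 2 libraries per group, 16 in all. All PC3 cells thus carried an siRNA and all LNCaP cells a vector, and each line stands for 1 tumour. In the siOC2 groups, replicate 1 is siRNA1 and replicate 2 is siRNA2, so the spread within these groups includes the difference between the siRNAs. The labels do not say whether the other replicates are separate cultures, so P values may measure technical spread only.

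Claudins differ in what they do to the junction. CLDN1, CLDN3, CLDN4, CLDN7 and CLDN8 are mostly known as sealing or barrier claudins, whereas CLDN2 forms a channel for cations and water. CLDN11 is the claudin of myelin and of the Sertoli cell barrier. CLDN6 is mainly an embryonic claudin, and CLDN12 lacks the C-terminal motif by which most claudins bind the scaffold proteins of the junction.

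Values are RPKM, a read density corrected for gene length and sequencing depth, as the authors computed it, so levels can be compared between genes. The 2 lines come from separate tables: the RPKM of a library summed to 401332 to 513810 in PC3 and to 813232 to 961895 in LNCaP, and the median gene had 1.61 to 2.73 and 3.44 to 4.12 RPKM. Relative depth, estimated from the smallest steps between low values, ran from 0.348 to 1.15 in PC3 and from 0.548 to 1.00 in LNCaP. The 3 shallow PC3 libraries were siOC2 in hypoxia replicate 1, siCtrl in hypoxia replicate 2 and siCtrl in normoxia replicate 1. The lines matched their labels: KLK3, the gene of the luminal prostate marker PSA, was listed at 0 in every PC3 library and had 1842 RPKM or more in LNCaP. Of 7 LNCaP markers, 7 had a median of 1 RPKM or more in LNCaP and 2 in PC3, and their summed level was 2979 to 6226 RPKM against 7.39 to 19.8. Of 5 PC3 markers, 5 passed that level in PC3 and 2 in LNCaP, with summed levels of 468 to 1430 and 28.2 to 62.2 RPKM. Of 3 markers of other cell types found in the tables, only COL1A1 passed it in either line, and the leukocyte gene PTPRC stayed under 1 RPKM in every library.

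ONECUT2, the targeted gene, was 1.77 and 1.16 RPKM in the siCtrl libraries in normoxia and 0.276 and 0.204 in the siOC2 libraries. In hypoxia it was 0.648 and 0.550 RPKM with siCtrl and 0.125 and 0.214 with siOC2. Every siOC2 library was below every siCtrl library. In LNCaP, ONECUT2 had 2.89, 7.86, 11.5 and 3.09 RPKM in the empty vector libraries and has no value in the ONECUT2 libraries, so the overexpression was not checked here.

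The claudins of LNCaP were dominated by CLDN7. In normoxia with the empty vector it had 132 and 156 RPKM (144 ± 16.9, SD, n = 2). CLDN3 followed with 49.8 and 53.2 RPKM and CLDN12 with 50.5 and 44.2. The libraries of CLDN3 and CLDN12 overlap, so their order is not resolved, while both lie below CLDN7 and above CLDN4 with 18 and 32.0 RPKM. CLDN8 was next at 5.80 and 6.04 RPKM. CLDN1 (0.615 and 0.0856 RPKM), CLDN11, CLDN6 and CLDN2 stayed under 1 RPKM in all 8 LNCaP libraries.

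PC3 had another order. In normoxia with siCtrl, CLDN12 was highest at 17.0 and 18.4 RPKM. CLDN4 (8.08 and 7.82 RPKM), CLDN3 (6.44 and 8.18 RPKM) and CLDN11 (5.11 and 6.73 RPKM) came next, and each overlapped its neighbour in the order. CLDN7 had only 2.32 and 2.35 RPKM and CLDN1 0.580 and 0.915. CLDN8 was listed at 0 in all 8 PC3 libraries, and CLDN2 and CLDN6 reached at most 0.0435 and 0.108 RPKM.

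**Figure D1:**
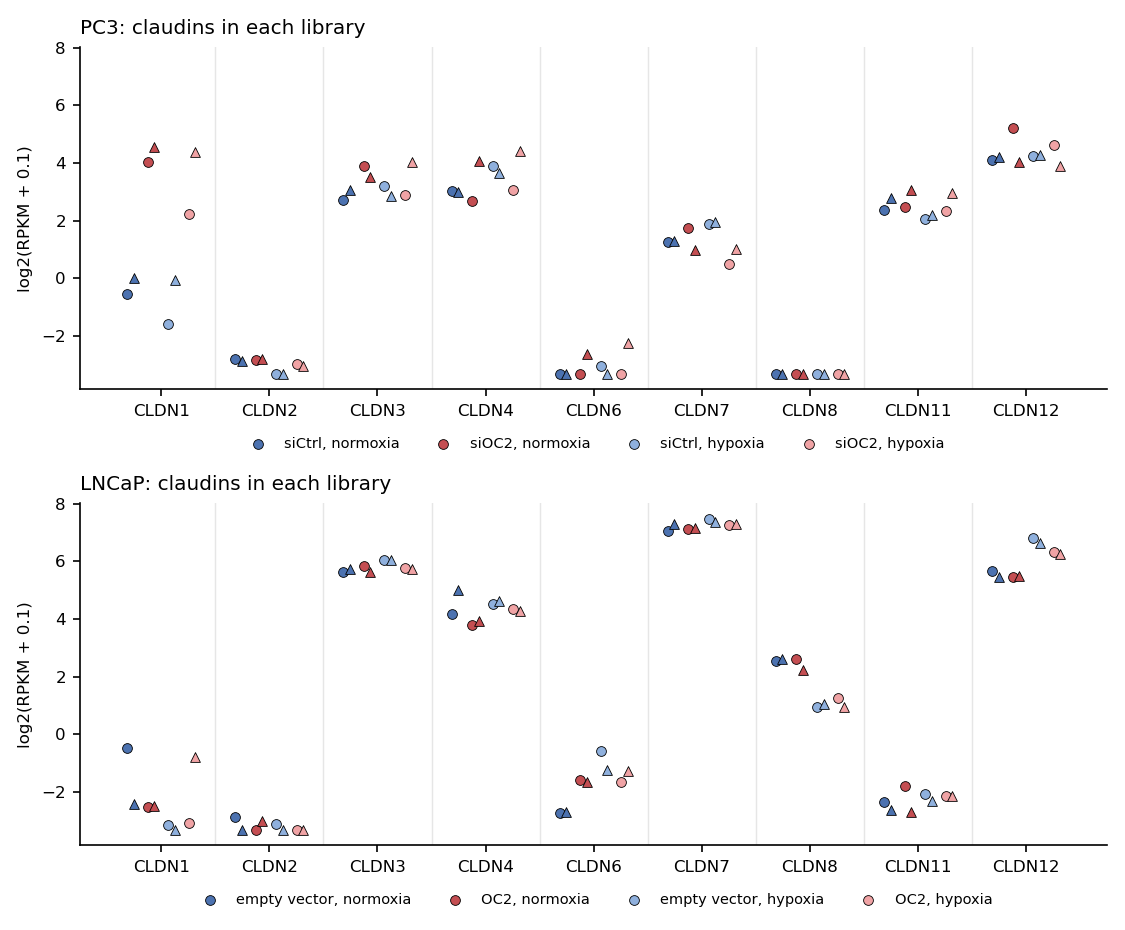
RPKM of the 9 claudins in each library, as log2(RPKM + 0.1), for PC3 (top) and LNCaP (bottom). Circles are replicate 1, triangles replicate 2 and colours the groups. CLDN7 lies between 132 and 180 RPKM in LNCaP and between 1.31 and 3.79 in PC3, CLDN11 shows the opposite order, and CLDN1 stands high only in the siOC2 libraries of PC3.

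Across all libraries, 5 of the 9 claudins did not overlap between the lines: CLDN3, CLDN7, CLDN8 and CLDN12 were higher in LNCaP and CLDN11 in PC3. The lines did not overlap for 43.6% of the 19661 genes with a value in every library, and for 58.3% of the 13548 genes with 1 RPKM or more in 2 libraries of a line, against 5 of 7 claudins. The separation as such is thus common. For CLDN7 the control means in normoxia, 144 and 2.33 RPKM, differ 61.9-fold. CLDN3 differed 7.05-fold (51.5 and 7.31 RPKM), CLDN4 3.14-fold (25.0 and 7.95 RPKM) and CLDN12 2.67-fold (47.4 and 17.7 RPKM). CLDN11 ran the other way, with 0.0792 RPKM in LNCaP and 5.92 in PC3, 74.7-fold higher in PC3. CLDN8, listed at 0 in PC3, had 1.83 to 6.04 RPKM in LNCaP. These ratios set values of separate tables side by side, and the smaller of them lie nearer to the difference in the tables' medians.

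Shares within a library do not depend on the scale of the table. CLDN7 made up 51.5% and 53.5% of the summed RPKM of the 9 claudins in the LNCaP control libraries in normoxia and 5.85% and 5.28% in those of PC3. CLDN11 held 12.9% and 15.1% in PC3 and 0.0370% and 0.0216% in LNCaP. The share of CLDN3 was nearly alike, 19.4% and 18.2% in LNCaP against 16.3% and 18.4% in PC3. The summed claudin level itself was 257 and 292 RPKM in LNCaP and 39.6 and 44.5 RPKM in PC3.

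**Figure D2:**
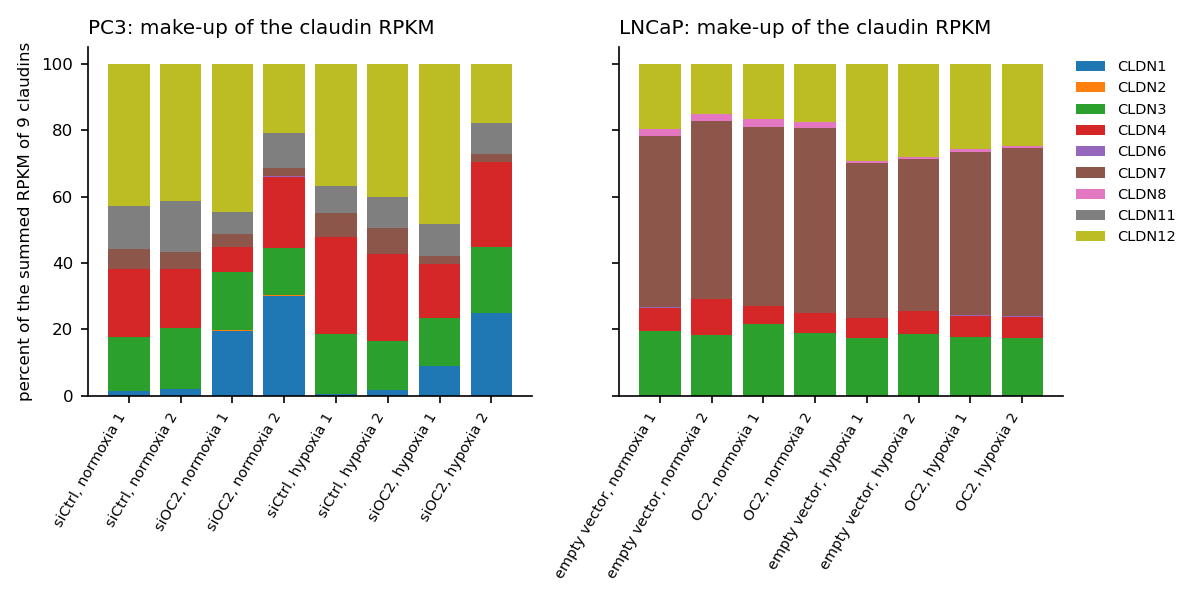
Share of each claudin in the summed RPKM of the 9 claudins, in percent, with 1 bar per library. CLDN7 takes 45.7% to 55.7% of every LNCaP bar, CLDN12 takes 17.96% or more of every PC3 bar, and CLDN1 takes 9.0% to 30.2% of the siOC2 bars and at most 2.06% of the siCtrl bars.

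ONECUT2 silencing in PC3 cells was the contrast the choice of CLDN1 rests on. In normoxia CLDN1 was 0.580 and 0.915 RPKM with siCtrl and 16.3 and 23.7 RPKM with siOC2 (0.748 ± 0.237 and 20.0 ± 5.18, SD, n = 2). In hypoxia it was 0.234 and 0.852 RPKM with siCtrl and 4.57 and 20.7 with siOC2. The siOC2 libraries were above all siCtrl libraries at both oxygen levels, and the low value in hypoxia is that of siRNA1, from the shallowest library. Set against the siCtrl mean, siRNA1 gave 21.9-fold and siRNA2 31.7-fold more CLDN1 in normoxia, and 8.42-fold and 38.1-fold more in hypoxia. The log2 fold change was 4.57 (SE, the standard error, 0.74, 95% confidence interval 2.88 to 6.26) in normoxia and 4.13 (SE 0.74, 2.44 to 5.82) in hypoxia.

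CLDN1 was under 1 RPKM in all siCtrl libraries, below the other 5 claudins that were tested in PC3. It held 1.47% and 2.06% of the claudin RPKM with siCtrl in normoxia and 19.6% and 30.2% with siOC2. In hypoxia it held 0.463% and 1.76% with siCtrl and 9.0% and 25.0% with siOC2. In the siRNA1 library in hypoxia it stayed below CLDN11 (4.57 and 4.92 RPKM). With siOC2 in normoxia only CLDN12 had a higher mean, and its libraries overlapped those of CLDN1. In hypoxia with siOC2, CLDN12, CLDN4, CLDN1 and CLDN3 each overlapped the next in order.

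The other 5 tested claudins had smaller log2 fold changes. CLDN3 was 6.44 and 8.18 RPKM with siCtrl and 14.6 and 11.3 with siOC2 in normoxia, a log2 fold change of 0.82 (95% confidence interval -0.11 to 1.74). In hypoxia its groups overlapped, with a log2 fold change of 0.42 (-0.50 to 1.35). CLDN11 had log2 fold changes of 0.20 in normoxia (-0.61 to 1.00) and 0.51 in hypoxia (-0.29 to 1.31).

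CLDN4 and CLDN12 split by siRNA. CLDN4 was 6.27 RPKM with siRNA1 and 16.8 with siRNA2 in normoxia, against 8.08 and 7.82 with siCtrl. In hypoxia it was 8.19 RPKM with siRNA1 and 21.2 with siRNA2, against 14.8 and 12.6 with siCtrl. CLDN12 took the opposite order: 37.2 RPKM with siRNA1 and 16.5 with siRNA2 in normoxia against 17.0 and 18.4, and 24.4 and 14.8 in hypoxia against 18.7 and 19.5. At both oxygen levels the siCtrl libraries of CLDN4 and CLDN12 thus lay between those of the 2 siRNAs. With 1 library per siRNA and oxygen level, this difference has no replicate within a condition.

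CLDN7 was 2.32 and 2.35 RPKM with siCtrl and 3.22 and 1.87 with siOC2 in normoxia, which overlap (log2 fold change 0.07, 95% confidence interval -0.83 to 0.97). In hypoxia it was 3.59 and 3.79 RPKM with siCtrl and 1.31 and 1.93 with siOC2, a log2 fold change of -1.16 (SE 0.39, 95% confidence interval -2.06 to -0.27). This value is not past the fold limit with a pseudocount of 1 RPKM (-0.85) or without siOC2 replicate 1 in hypoxia (-0.90). Without either siCtrl library in hypoxia (-1.20 and -1.12) its P was no longer under 0.05.

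**Figure D3:**
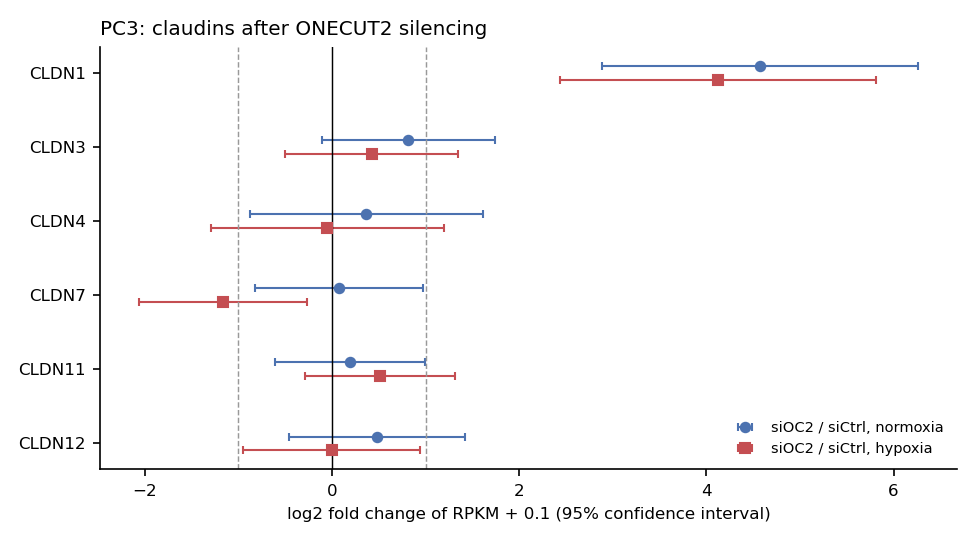
Log2 fold change of RPKM + 0.1 after ONECUT2 silencing for the 6 claudins expressed in PC3, in normoxia (circles) and hypoxia (squares). Points are limma estimates, bars their 95% confidence intervals, and dashed lines a fold change of 2. CLDN1 lies at 4.57 and 4.13 and the other claudins between -1.16 and 0.82.

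Calls required more than a 2-fold change and an unadjusted limma P below 0.05, and only genes that reached 1 RPKM in 2 or more libraries of a line were tested. Of the 9 claudins, 6 passed this limit in PC3 (CLDN1, CLDN3, CLDN4, CLDN7, CLDN11 and CLDN12). CLDN1 passed only through the siOC2 libraries, so a difference was built into its passing. In normoxia 1 of the 6 was called, CLDN1, where 5.21% of the 12214 genes were called. In hypoxia 2 were called, CLDN1 and CLDN7, where 7.5% of genes were called. Nothing is read from these counts, as the choice used the contrast. Of the 5 PC3 markers, 1 was called lower on silencing in normoxia (S100A2) and 3 in hypoxia (VIM, CD44 and S100A2), with medians of -1.11 and -1.26 on the log2 scale, and their part in the claudin values was not tested. None had an adjusted p under 0.05: that of CLDN1 was 0.124 in normoxia and 0.0768 in hypoxia, and that of CLDN7 in hypoxia 0.287. Over all genes the median change was 0.13 in normoxia and -0.03 in hypoxia on the log2 scale.

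CLDN1 has a claudin as its neighbour. In GRCh37, CLDN1 lies on the minus strand of chromosome 3 (chr3:190023496-190040235). The annotated start of CLDN16, on the plus strand, is 95 bases from that of CLDN1. These positions come from a later GENCODE release than the authors used, and the start of CLDN16 may differ in theirs. CLDN16, a claudin of magnesium reabsorption in the kidney, was looked at after its values were seen. In PC3 it was listed at 0 and at 0.110 RPKM with siCtrl and was 0.306 and 0.476 with siOC2 in normoxia. In hypoxia it was listed at 0 and at 0.00352 RPKM with siCtrl and was 0.191 and 0.235 with siOC2. These levels are under 1 RPKM and were not tested. The siOC2 libraries lay above all siCtrl libraries, as for CLDN1. The share of all genes that separate in this way on silencing was not counted, so nothing is read from the likeness. Whether CLDN16 and CLDN1 are regulated together was not tested. In LNCaP, CLDN16 was listed at 0 throughout.

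**Figure D4:**
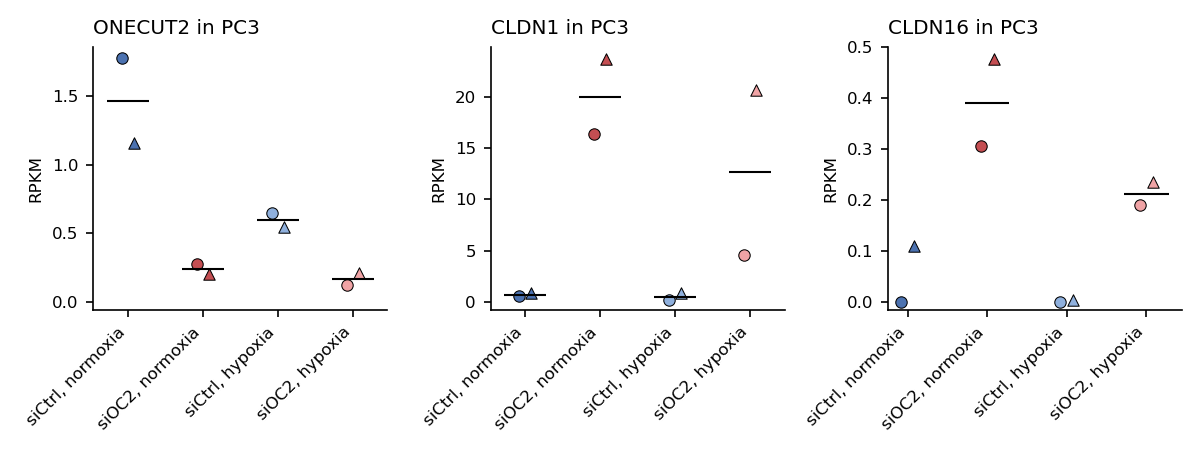
RPKM of ONECUT2, CLDN1 and CLDN16 in the 4 groups of PC3 cells, on linear axes that differ between panels. Circles are replicate 1 (siRNA1 in siOC2), triangles replicate 2 (siRNA2), and lines the mean where no library is at 0. ONECUT2 is lower and CLDN1 and CLDN16 are higher in each siOC2 library than in any siCtrl library.

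Of the 9 claudins, 8 have an entry in the RefSeq promoter table (GRCh38.p14), and 2 are shown, since CLDN1 is the claudin with the large change in PC3 and CLDN12 the most abundant claudin with a called change in LNCaP. The letters are the 250 bases before the start of the first entry of each gene, 5′ to 3′ on the strand of the gene. They are chr3:190322447-190322696 on the minus strand for CLDN1 and chr7:90403211-90403460 on the plus strand for CLDN12. Some of the 8 claudins have more than 1 entry. Whether the start used is that of the gene positions given in GRCh37 was not checked. Capitals mark any match to ACGTG or GCGTG (the core bound by hypoxia-inducible factors), ATCAAT or ATCGAT (cores of ONECUT sites) or CAGGTG (an E-box bound by Snail and ZEB repressors) on either strand.
CLDN1: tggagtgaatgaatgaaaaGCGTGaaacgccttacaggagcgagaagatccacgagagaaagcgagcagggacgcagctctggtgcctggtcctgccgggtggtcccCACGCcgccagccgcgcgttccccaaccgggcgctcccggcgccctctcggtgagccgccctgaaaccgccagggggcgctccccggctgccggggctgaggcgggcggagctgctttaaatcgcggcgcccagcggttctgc
CLDN12: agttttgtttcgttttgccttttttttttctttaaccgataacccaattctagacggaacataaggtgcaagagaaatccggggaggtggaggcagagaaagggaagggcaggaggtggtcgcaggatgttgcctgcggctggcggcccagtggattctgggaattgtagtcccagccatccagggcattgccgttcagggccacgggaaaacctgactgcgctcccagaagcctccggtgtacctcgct
The CLDN1 sequence holds GCGTG on each strand, with first bases at -231 and -143 from the start, and the CLDN12 sequence holds none of the 5 motifs. GCGTG occurs in 32.2% of 35116 promoter sequences of this length and in 5 of the 11 entries of the claudins. ACGTG occurs in 18.5% of all and in 1 of 11 (CLDN3), and CAGGTG in 17.5% of all and in 1 of 11 (CLDN7). ATCAAT (5.58% of all) and ATCGAT (0.655% of all) occur in none of the 11. No motif overlaps another in the letters shown.

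The genes whose level over the 8 PC3 libraries was most like that of CLDN1, by Pearson's r of log2(RPKM + 0.1) among 12213 genes, were MAPKAP1 (r = 0.991), LRRC49 (0.985), NSMF (0.985), TNFRSF11B (0.984) and UNC119B (0.981). The 8 libraries share the 4 groups, so these values are a description.

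Hypoxia in PC3 cells called no claudin. These contrasts use the libraries of the silencing contrasts and are not independent of them. With siCtrl, CLDN4 was 8.08 and 7.82 RPKM in normoxia and 14.8 and 12.6 in hypoxia (log2 fold change 0.77, 95% confidence interval -0.47 to 2.02), and CLDN7 was 2.32 and 2.35 and then 3.59 and 3.79 (0.64, -0.26 to 1.54). CLDN11 had 5.11 and 6.73 RPKM and then 4.05 and 4.48 (-0.45, -1.25 to 0.35). CLDN12 had 17.0 and 18.4 and then 18.7 and 19.5 RPKM (0.11). The libraries of these 4 did not overlap between normoxia and hypoxia, as was so for 55.0% of all genes tested. Of the 6 claudins, limma called 0 and found 0 with an unadjusted P under 0.05, where 3.86% of the 12214 genes were called and 7.38% had such a P.

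With siOC2, limma also called 0 of 6 and found 0 with an unadjusted P under 0.05, where 3.46% of genes were called and 6.71% had such a P. The same siRNAs were used at both oxygen levels, but this fit did not pair libraries by siRNA. The difference between the siRNAs is therefore part of the spread. CLDN1 was 16.3 and 4.57 RPKM with siRNA1 and 23.7 and 20.7 with siRNA2 in normoxia and hypoxia, a log2 fold change of -1.0 (95% confidence interval -2.69 to 0.69). Without siRNA2 in hypoxia the value was -2.08 and was called (adjusted p = 0.0679). The median of all genes in this contrast was -0.22, and the siRNA1 library in hypoxia is the shallowest of the line. With relative depth as a covariate limma again called 0 of the 6.

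The difference between the silencing effects in hypoxia and normoxia was computed as an interaction in PC3. It rests on the silencing values that guided the choice and is given as a description. CLDN1 also entered it only through the siOC2 libraries, so nothing is read from the counts. The interaction was called for 0 of 6 claudins, with 0 at an unadjusted P under 0.05. Of all genes, 0.942% were called and 1.03% had such a P. For CLDN1 the difference between the silencing effects was -0.44 on the log2 scale (95% confidence interval -2.83 to 1.94), which leaves room for a large difference either way. For CLDN7 it was -1.23 (-2.50 to 0.04, adjusted p = 1.00). It was called with upper-quartile scaling (-1.08), where the median of all genes was -0.01 and not -0.17.

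In LNCaP cells hypoxia moved CLDN12 and CLDN8 in opposite directions. CLDN12, which lies on chromosome 7 (chr7:90013035-90142716 in GRCh37, plus strand), rose from 50.5 and 44.2 RPKM to 113 and 100.3 with the empty vector (47.4 ± 4.48 to 107 ± 8.91, SD, n = 2). The log2 fold change was 1.17 (SE 0.11, adjusted p = 0.000213). CLDN8, a barrier claudin best known from the kidney, on chromosome 21 (chr21:31586324-31588415, minus strand), fell from 5.80 and 6.04 RPKM to 1.84 and 1.97 (5.92 ± 0.170 to 1.90 ± 0.0903, SD, n = 2). Its log2 fold change was -1.59 (SE 0.18, adjusted p = 0.000687). The hypoxia libraries of both genes lay outside the range of the normoxia libraries. The share of all LNCaP genes that separate in this way was not counted, so nothing is read from the separation.

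CLDN12 went from 19.6% and 15.1% of the claudin RPKM in normoxia to 29.3% and 28.1% in hypoxia, and CLDN8 from 2.25% and 2.07% to 0.478% and 0.550%. The summed claudin level was 257 and 292 RPKM in normoxia and 385 and 357 in hypoxia. CLDN12 overlapped CLDN3 in normoxia and was separate from and above it in hypoxia. COL1A1, the only tested marker of other cell types, was called higher in hypoxia as well (log2 fold changes 1.11 with the empty vector and 1.22 with ONECUT2), while PTPRC was listed at 0 in every LNCaP library. The part of other cells in the claudin values was not tested.

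CLDN12 overlaps other genes on its own strand, GTPBP10 and CDK14 among them. With the empty vector GTPBP10 was 41.6 and 31.6 RPKM in normoxia and 34.6 and 35.6 in hypoxia, and CDK14 was 17.2 and 10.7 and then 19.3 and 21.7. How the reads of overlapping genes were split was not tested. CLDN8 overlaps no annotated gene. CLDN7 (chr17:7163222-7167302, minus strand) overlaps ELP5 on the other strand, and ELP5 was 26.9 to 32.0 RPKM over the LNCaP libraries with the empty vector, far below CLDN7. In PC3 the order was the reverse, with ELP5 at 35.2 to 54.1 RPKM and CLDN7 at 1.31 to 3.79. Whether reads of ELP5 entered the CLDN7 values there was not tested. On its own strand CLDN7 overlaps ENSG00000262302, and CLDN11 overlaps ENSG00000285218 and SLC7A14-AS1. Their part in the values of CLDN7 and CLDN11 was not tested.

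The other claudins of LNCaP moved less. CLDN3 was 49.8 and 53.2 RPKM in normoxia and 66.6 and 66.8 in hypoxia, a log2 fold change of 0.37 that stayed under the fold limit (SE 0.10, adjusted p = 0.0235). CLDN7 was 132 and 156 and then 180 and 163 RPKM (log2 fold change 0.25, adjusted p = 0.102). CLDN4 overlapped, with 18 and 32.0 and then 23.1 and 24.6 RPKM (-0.01, 95% confidence interval -0.53 to 0.51). In all, 2 of the 5 claudins that passed the limit on low values in LNCaP were called, where 7.95% of 12283 genes were called. Their median log2 fold change was 0.25, beside 0.02 over all genes.

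With the ONECUT2 vector CLDN8 was again called in hypoxia. It fell from 5.98 and 4.63 RPKM to 2.31 and 1.83, a log2 fold change of -1.31 (SE 0.18, adjusted p = 0.00211). CLDN12 was 43.7 and 45.1 RPKM in normoxia and 79.6 and 76.9 in hypoxia. Its log2 fold change of 0.82 was under the fold limit (SE 0.11, adjusted p = 0.00151). CLDN4 was 13.8 and 15.3 and then 20.3 and 19.5 RPKM (0.46, 95% confidence interval -0.07 to 0.98), and CLDN3 and CLDN7 had 0.03 and 0.11. CLDN8 was the only 1 of the 5 called, where 6.84% of genes were called, and the median of the 5 was 0.11 beside 0.09 over all genes.

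**Figure D5:**
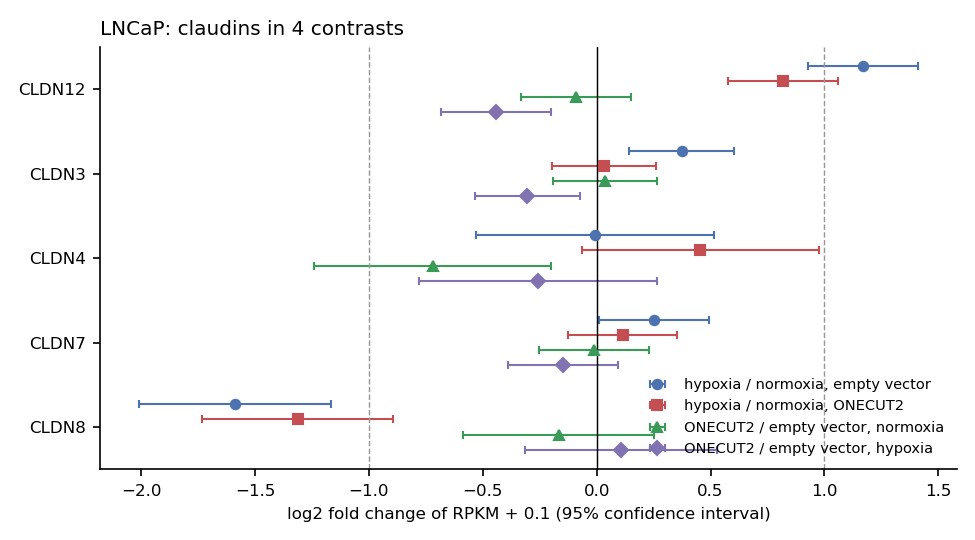
Log2 fold change of RPKM + 0.1 of the 5 claudins tested in LNCaP, for hypoxia over normoxia in the empty vector (circles) and ONECUT2 (squares) libraries and for ONECUT2 over empty vector in normoxia (triangles) and hypoxia (diamonds). Bars are limma 95% confidence intervals and dashed lines a fold change of 2. In hypoxia CLDN12 lies at 1.17 and 0.82 and CLDN8 at -1.59 and -1.31, and the ONECUT2 contrasts lie between -0.72 and 0.11.

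The ONECUT2 vector called no claudin in LNCaP. In normoxia CLDN4 was 18 and 32.0 RPKM with the empty vector and 13.8 and 15.3 with ONECUT2, a log2 fold change of -0.72 (SE 0.23, adjusted p = 0.103). The groups of CLDN4 did not overlap, but the share of all genes that separate so was not counted. Its 2 empty vector libraries differed widely: without the first, the log2 fold change was -1.13. CLDN3, CLDN7, CLDN8 and CLDN12 had log2 fold changes of 0.04, -0.01, -0.17 and -0.09, each with a 95% confidence interval that spans 0. Of the 5, limma called 0 and found 1 at an unadjusted P under 0.05, where 3.29% of genes were called and 24.1% had such a P.

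In hypoxia CLDN12 was 113 and 100.3 RPKM with the empty vector and 79.6 and 76.9 with ONECUT2, a log2 fold change of -0.44 (SE 0.11, adjusted p = 0.0335). CLDN3 was 66.6 and 66.8 RPKM and then 54.4 and 53.7 (-0.30, SE 0.10, adjusted p = 0.0879). Both were under the fold limit. Their groups did not overlap, but the share of all genes that separate so was not counted, and nothing is read from it. CLDN4 (-0.26), CLDN7 (-0.15) and CLDN8 (0.11) had intervals that span 0. Of the 5, limma called 0 and found 2 at an unadjusted P under 0.05, where 4.47% of genes were called and 28.2% had such a P. The contrasts of ONECUT2 with the empty vector and of hypoxia with normoxia share libraries, so their values stand side by side and were not set against each other.

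CLDN1, the claudin with the large change in PC3, was near 0 in LNCaP with either vector. In normoxia it was 0.615 and 0.0856 RPKM with the empty vector and 0.0735 and 0.0773 with ONECUT2. In hypoxia it was 0.0126 RPKM and listed at 0 with the empty vector, and 0.0171 and 0.476 with ONECUT2. The single libraries with the higher values do not follow a group, and the gene did not pass the limit on low values. The interaction of vector and oxygen in LNCaP was called for 0 of 5 claudins, with 2 at an unadjusted P under 0.05, where 3.70% of genes were called and 16.9% had such a P.

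CLDN2 and CLDN6 passed the limit on low values in neither line. CLDN2 was at most 0.0362 RPKM in LNCaP and was listed at 0 in 5 of its libraries. CLDN6 in LNCaP was 0.0520 and 0.0546 RPKM with the empty vector in normoxia, 0.235 and 0.218 with ONECUT2 in normoxia, 0.568 and 0.323 with the empty vector in hypoxia and 0.220 and 0.315 with ONECUT2 in hypoxia. The empty vector libraries in normoxia were below all others, at levels too low for the test. TNFRSF12A, which CLDN6 overlaps on the other strand, was also lowest there (7.07 and 9.75 RPKM, against 12.3 to 18.9 in the other LNCaP libraries), and its part in the CLDN6 values was not tested. CLDN11 was 0.0545 to 0.186 RPKM in LNCaP.

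Of 15 further claudins, 14 are in the tables, and only CLDN15 reached 1 RPKM in 2 libraries of a line. CLDN15, which forms cation pores in the gut, was 1.3 to 3.08 RPKM in PC3 and 4.89 to 6.56 in LNCaP. It was called in none of the 10 contrasts, and its log2 fold changes after silencing were 0.29 in normoxia and 0.49 in hypoxia.

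The partners of claudins in the junction were followed in a list of 30 genes, 28 of them in the tables, of which 20 were tested in PC3 and 24 in LNCaP. After ONECUT2 silencing PARD6B, a polarity protein of the Par complex, and CRB3, the Crumbs polarity protein, were called higher at both oxygen levels, 2 of 20 partners where 5.21% of all genes were called in normoxia and 7.5% in hypoxia. PARD6B had means of 2.75 and 6.19 RPKM in normoxia and 2.06 and 5.0 in hypoxia (log2 fold changes 1.14 and 1.21), and CRB3 0.876 and 2.42 and then 0.228 and 1.05 (1.44 and 1.93). The adjusted p were 0.424 and 0.266 for PARD6B and 0.538 and 0.263 for CRB3. CRB3 met the limit on low values only with its siOC2 libraries. A difference was thus built into its passing, as for CLDN1, and nothing is read from its calls on silencing. The median of the partners was 0.21 in normoxia and 0.01 in hypoxia.

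In hypoxia with siCtrl limma called 2 of 20 partners lower, where 3.86% of all genes were called in either direction. They were CRB3 (log2 fold change -1.65, adjusted p = 0.591) and the scaffold MPDZ (-1.09, adjusted p = 0.605). CRB3 was 1.18 and 0.576 RPKM in normoxia and 0.0877 and 0.368 in hypoxia, with 1 shallow library in each group. Its change thus rests on levels near the floor. MPDZ was also the only partner with a called interaction in PC3 (1.39, adjusted p = 1.00). In LNCaP the ONECUT2 vector called 0 of 24 partners in limma, with 6 at an unadjusted P under 0.05 in normoxia and 7 in hypoxia, near the shares of all genes (24.1% and 28.2%). Hypoxia with the empty vector called 2 of 24 partners, both higher, where 7.95% of all genes were called: TJP3 went from a mean of 6.33 to 13.2 RPKM (log2 fold change 1.06, adjusted p = 0.00355) and MPDZ from 18.8 to 37.5 (1.01, adjusted p = 0.00148). With the ONECUT2 vector hypoxia called 0 of 24, with 8 at an unadjusted P under 0.05 (40.6% of all genes), and the interaction 0 of 24, with 5 (16.9% of all genes).

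Genes of epithelial adhesion and its regulators, a list of 21 with 16 tested in PC3 and 15 in LNCaP, included adhesion genes and transcription factors. Among the 15 is CDH1, which with ONECUT2 in hypoxia was 284 RPKM in replicate 1 and listed at 0 in replicate 2. That 0 entered the fit and widened the spread of CDH1 in every LNCaP contrast, so nothing is read from its lack of a call there. After silencing in normoxia 2 of 16 were called, where 5.21% of all genes were. The splicing regulator ESRP1 was called higher (3.51 to 11.1 RPKM, log2 fold change 1.64, adjusted p = 0.351), and the pioneer factor FOXA1 lower (26.3 to 11.8 RPKM, -1.14, adjusted p = 0.347). In hypoxia 4 of 16 were called, where 7.5% of all genes were, and all 4 were lower: the mesenchymal filament gene VIM (340 to 97.8 RPKM, -2.26), the epithelial factor ELF3 (6.16 to 1.94 RPKM, -1.61), FOXA1 (-1.10) and the mesenchymal factor TWIST1 (-1.06), with adjusted p of 0.128 to 0.255. In LNCaP the ONECUT2 vector called 1 of 15 at each oxygen level (3.29% and 4.47% of all genes were called), SNAI1, a repressor of epithelial genes, which rose from 1.38 to 4.63 RPKM in normoxia (log2 fold change 1.67, adjusted p = 0.00263) and from 1.48 to 3.64 in hypoxia (1.25, adjusted p = 0.0058). Hypoxia called 2 of 16 with siCtrl and 1 of 16 with siOC2 in PC3, where 3.86% and 3.46% of all genes were called. In LNCaP it called 1 of 15 with the empty vector and 3 of 15 with ONECUT2, where 7.95% and 6.84% were called. KLF4, an epithelial differentiation factor, was higher in hypoxia in all 4 hypoxia contrasts. Its log2 fold changes were 1.91 with siCtrl and 1.17 with siOC2 in PC3, and 1.02 with the empty vector and 1.40 with ONECUT2 in LNCaP. ELF3 was also higher with siCtrl in PC3 (1.54), and VIM and SNAI2, another such repressor, with ONECUT2 in LNCaP (1.05 and 1.04). Their adjusted p were 0.00116 and 0.00197 in LNCaP and 0.216 for ELF3, and those of KLF4 were 0.17 and 0.719 in PC3 and 0.000979 and 0.000327 in LNCaP.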

How the data were processed

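RNA-Seq of 16 libraries was used, 8 of each line, grouped by their labels. Another 12 samples, of ChIP-Seq, were not analysed here. The authors aligned trimmed reads of TruSeq Stranded mRNA libraries to hg19 with STAR 2.4.2a and computed RPKM with Cufflinks 2.1.1 on a GENCODE annotation. Whether the counting used strand is not given in the sources used here. The deposited RPKM were used with no further scaling. Depth is unknown in reads, and the depth of a library relative to others was read from the step size of its low values, with an error of at most 0.07% on 5 simulated libraries. An exact 0 may be a failed estimate, so such values are written as listed at 0 and get no mean.

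Genes that reached 1 RPKM in 2 or more of the 8 libraries of a line were tested on log2(RPKM + 0.1) with limma 3.58.1 in R 4.3.3, in a fit to the 4 groups of the line with a mean-variance trend. A fold change on this scale understates that of low genes. Calls used a fold change over 2 and an unadjusted, 2-sided P under 0.05. Benjamini-Hochberg adjusted p cover all genes tested. In simulated data like PC3 silencing in normoxia (12079 genes), 169 of 200 genes with a log2 change of 2 were called along with 322 unchanged genes, and in data like ONECUT2 in LNCaP in normoxia (11978 genes) 196 of 200 along with 37.

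Members, lists and tests were chosen with earlier results of these data known. Named are all 9 members, the targeted gene, further claudins with at least 1 RPKM in 2 libraries of a line, the called genes of 2 pathway lists with the largest changes (up to 4 per contrast) and the 5 genes most correlated with CLDN1. A marker gene and a called gene of the pathway lists are not reported here. Replicate numbers were checked for pairing by correlating their deviations from the mean of the group, which gave values from -0.186 to 0.618 in PC3 and from -0.0648 to 0.275 in LNCaP. They share only a number, apart from the siRNA in the siOC2 groups. Gene positions come from a later GENCODE release on GRCh37 than that of the authors. Alternatives were another pseudocount, other limits on low values, upper-quartile scaling, adjusted p, exact 0 as missing, depth as a covariate, only the groups compared, the replicate block and leaving out each library in turn. Python 3.11.15 and matplotlib 3.10.9 drew the plots.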

Additional observations from a re-analysis of the deposited data

Results flagged for a closer look

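For 2 of the 5 claudins tested in LNCaP, the interaction term of limma had an unadjusted P under 0.05. Of all 12283 genes, 16.9% had such a P. This term is the difference between the response to hypoxia with ONECUT2 and that with the empty vector. For CLDN3 the difference was -0.34 on the log2 scale (95% confidence interval -0.67 to -0.02, adjusted p = 0.277): the gene went from 49.8 and 53.2 to 66.6 and 66.8 RPKM with the empty vector and from 56.7 and 49.2 to 54.4 and 53.7 with ONECUT2. For CLDN12 it was -0.35 (95% confidence interval -0.69 to -0.01, adjusted p = 0.285), with values of 50.5 and 44.2 to 113 and 100.3 RPKM against 43.7 and 45.1 to 79.6 and 76.9. Neither passes the correction over all genes. With 2 libraries per group, single libraries that stand apart from their group could not be tested.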

How the results depend on the processing

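Of 141 counts of called claudins under alternative settings, 126 stayed equal to the value reported or within 1.5 times of it. A reported count of 0 that stayed 0 is among the 126, so they do not all concern called claudins. None of the fold changes reported as called turned its sign. The calls of CLDN12 and CLDN8 in hypoxia with the empty vector and of CLDN8 with ONECUT2 held in every setting run. After silencing in hypoxia 1 claudin (CLDN1) in place of 2 was called with a pseudocount of 1 RPKM or at least 5 RPKM in 2 libraries, and 0 with adjusted p, as in normoxia (0 in place of 1). With upper-quartile scaling the PC3 interaction called 1 (CLDN7). With no limit on low values the ONECUT2 vector in normoxia and the LNCaP interaction each called 1 (CLDN6, under 1 RPKM throughout). Leaving out 1 library gave 1 to 2 calls after silencing in normoxia (2 without siOC2 replicate 2, CLDN12 added), 1 to 2 in hypoxia (1 without either siCtrl library or siOC2 replicate 1 of hypoxia, CLDN7 lost), 0 to 1 for hypoxia with siOC2 (CLDN1 without siRNA2 in hypoxia), 0 to 1 for the PC3 interaction (CLDN7 without siRNA2 in normoxia or in hypoxia) and 0 to 1 for the ONECUT2 vector in normoxia (CLDN4 without the first empty vector library). The cause was not tested. A group that lost a library held 1 sample, which was assumed to vary like the others. With the replicate block, the calls were 1 and 2 after silencing in normoxia and hypoxia and 2 and 1 for hypoxia in LNCaP with the empty vector and ONECUT2, and 0 in the other contrasts, so the block changed no call. The deviations of same-numbered siCtrl and siOC2 libraries of normoxia were only weakly correlated (-0.107). With crossed numbers, chosen after seeing the data, the counts in PC3 were again 1 and 2. The log2 fold change of CLDN1 after silencing ran from 3.57 to 4.86 in normoxia and from 2.86 to 5.20 in hypoxia. With 2 libraries per group and unknown read numbers, levels under 1 RPKM and changes under 2-fold in PC3 were poorly resolved.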

Other observations

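Some claudins that did not pass the limit on low values had groups that did not overlap. They were picked after their values were seen and were not tested. Such separation is common with 2 libraries per group: it held for 55.0% of tested genes for hypoxia in PC3 with siCtrl. The share of all genes in the contrasts below was not counted, so nothing is read from it. CLDN9, the neighbour of CLDN6 on chromosome 16 with 206 bases between the genes, was 0.130 and 0.322 RPKM with the empty vector and 0.718 and 0.698 with ONECUT2 in normoxia of LNCaP, and 0.145 and 0.128 against 0.588 and 0.466 in hypoxia. Every ONECUT2 library lay above every empty vector library. CLDN5, the claudin of endothelial junctions, ran the other way, with 0.312 and 0.414 RPKM against 0.126 and 0.126 in normoxia and 0.229 and 0.327 against 0.139 and 0.112 in hypoxia. CLDN10 was 0.0805 and 0.0889 RPKM with the empty vector in normoxia and 0.00841 and 0.0244 in hypoxia, and was listed at 0 in every ONECUT2 library. CLDN14, a claudin of the inner ear, was 0.204 and 0.339 RPKM with siCtrl and 1.5 and 0.648 with siOC2 in normoxia of PC3, and 0.710 and 0.608 against 0.997 and 0.907 in hypoxia.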
